A study of Mus musculus with 10 samples.

Results

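The genes that bring sulfate into the cell, activate it and pass it to acceptor molecules were followed in sorted stem cells of the mouse intestine from animals under calorie restriction (CR) or fed ad libitum (AL). They are 9 genes of the 30295 in the deposited tables: the sulfate transporters Slc26a2 and Slc26a3, the PAPS synthases Papss1 and Papss2, the PAPS transporter Slc35b2 and the cytosolic sulfotransferases Sult1a1, Sult1b1, Sult1c2 and Sult1d1. They were chosen by name and function from this pathway, with earlier results on these libraries known. Papss2 was 1 of only 3 genes past the threshold in Lgr5 CR against Lgr5 AL. Values of the 9 genes in that comparison, and in any average that contains it, are therefore given as a description. Where calls of the 9 genes in them are counted, nothing is read from the counts. All 9 genes passed the filter on low counts, as did 15839 genes in all.

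Cells were sorted by flow cytometry from C57Bl/6 mice carrying either of a pair of reporters. Hopx-CreER::LSL-tdTomato labels cells in which a Cre recombinase driven by the Hopx gene has switched on a red fluorescent protein, and is used to mark reserve stem cells. Lgr5-EGFP-IRES-CreER places a green fluorescent protein under the Lgr5 gene and is used to mark active stem cells at the crypt base. The 10 animals gave 1 library each: 2 of Hopx cells under CR, 2 of Hopx cells under AL, 3 of Lgr5 cells under CR and 3 of Lgr5 cells under AL. They were handled in 5 isolations, each with 1 CR and 1 AL animal of the same reporter, so that isolations 1 to 3 are Lgr5 and isolations 4 and 5 are Hopx. The labels do not state the degree or length of the restriction or the age of the animals.

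Sulfation needs an activated donor. PAPS synthase joins inorganic sulfate to ATP and then phosphorylates the product to PAPS, phosphoadenosine phosphosulfate. Cytosolic sulfotransferases (SULT enzymes) use PAPS to conjugate steroids, thyroid hormones, catecholamines, bile acids and dietary phenols, while sulfotransferases of the Golgi use it on mucins and on the heparan and chondroitin sulfate chains of proteoglycans. The intestinal epithelium is a site of both: goblet cells secrete sulfated mucins and enterocytes conjugate phenols from food.

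Each library held from 20.3 M (1e6) to 87.2 M estimated counts. Levels are given as CPM, counts per 1e6 counts of the library after TMM scaling, when libraries are compared. When genes are compared they are given as TPM, which takes account of transcript length. Lgr5 mRNA was 158 and 69.3 CPM in Hopx CR, 70.0 and 87.2 in Hopx AL, 238, 149 and 270 in Lgr5 CR and 75.0, 136 and 255 in Lgr5 AL. Hopx mRNA was 116 and 81.9 CPM in Hopx CR, 111 and 105 in Hopx AL, 145, 154 and 152 in Lgr5 CR and 116, 131 and 133 in Lgr5 AL. The Hopx-sorted libraries thus did not have the higher Hopx levels. Summed over 20 enterocyte markers, all of them detected in every library, the level was 25329 to 28214 CPM in Hopx CR, 12954 to 16890 in Hopx AL, 26709 to 36912 in Lgr5 CR and 7948 to 36095 in Lgr5 AL. The summed Paneth markers, 9 genes in the tables, stood at 63423 to 100050 CPM in Hopx CR, 84274 to 208917 in Hopx AL, 49073 to 67403 in Lgr5 CR and 16380 to 66216 in Lgr5 AL. Eif2s3y, a Y-linked gene, was at 0.125 TPM in Hopx CR replicate 1 and at 14.5 TPM in its isolation partner Hopx AL replicate 1, and at 0.0766 TPM in Lgr5 CR replicate 3 and 0.0450 TPM in Lgr5 AL replicate 3. In the other 6 libraries it was 8.91 to 30.5 TPM. The Y-linked level and diet therefore cannot be told apart in isolation 4, and isolation 5 is the Hopx pair alike in this gene.

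Slc26a2 and Slc26a3 carry sulfate across the plasma membrane. SLC26A2 is a sulfate and chloride exchanger whose loss in humans causes chondrodysplasia, and SLC26A3 is the chloride and bicarbonate exchanger of the apical brush border, mutated in human congenital chloride diarrhoea, which also carries sulfate. Slc26a3 was at 72.5 and 86.8 CPM in Hopx CR, against 51.1 and 47.8 CPM in Hopx AL. The lower of the CR libraries lay above both AL libraries. Whether groups overlapped was looked at for the sulfate genes only. The share of all tested genes without overlap was not counted, so nothing is read from it here or below. The log2 fold change was 0.69 (SE 0.363, adjusted p = 0.626, edgeR quasi-likelihood test), so the difference did not pass. In Lgr5 cells Slc26a3 was at 83.3, 55.8 and 66.1 CPM under CR, against 52.7, 30.9 and 20.9 CPM under AL. These groups did not overlap either, though the lowest CR value and the highest AL value were close, and the log2 fold change was 0.97 (SE 0.298).

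Slc26a2 was at 180 and 95.2 CPM in Hopx CR, against 114 and 120 CPM in Hopx AL. The CR libraries lay on both sides of the AL libraries, and the log2 fold change of 0.24 (SE 0.281, adjusted p = 0.840, edgeR) turned to -0.30 without Hopx CR replicate 1. In Lgr5 cells it was at 138, 114 and 122 CPM under CR, against 84.3, 64.6 and 88.5 CPM under AL. Every CR library was above every AL library there, with a log2 fold change of 0.65 (SE 0.231). Beside it, the summed level of 10 goblet cell markers was 3474 to 5532 CPM in Lgr5 CR and 2927 to 6143 CPM in Lgr5 AL, ranges that overlapped. In Hopx cells it was 7728 to 9506 CPM under CR and 4689 to 9225 CPM under AL. The part of goblet or other cells in the Slc26a2 values was not tested.

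Of the PAPS synthases, Papss2 differed widely between groups and Papss1 varied little. Papss2 was at 663 and 477 CPM in Hopx CR, against 450 and 404 CPM in Hopx AL. Both CR libraries lay above both AL libraries, one of them narrowly. The log2 fold change of 0.42 (SE 0.239, adjusted p = 0.651, edgeR) did not pass. It was 0.16 without Hopx CR replicate 1, the library that also stood apart in Eif2s3y. In Lgr5 cells Papss2 was at 498, 703 and 706 CPM under CR, against 208, 197 and 184 CPM under AL. The AL libraries were tightly grouped, at 196 ± 11.97 CPM (SD, n = 3), and the CR libraries at 636 ± 119 CPM (SD, n = 3) lay far above them, with a log2 fold change of 1.69 (SE 0.200).

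Papss1 encodes the other synthase. It ran from 43.2 to 58.6 CPM in Hopx CR, from 43.3 to 54.8 in Hopx AL, from 43.4 to 48.3 in Lgr5 CR and from 46.3 to 56.4 in Lgr5 AL. Its log2 fold change was 0.05 (SE 0.206, adjusted p = 0.955, edgeR) for CR against AL in Hopx cells and -0.15 (SE 0.169) in Lgr5 cells. On the length-corrected TPM scale Papss2 exceeded Papss1 in 10 of 10 libraries. Papss2 made up 88.7% and 88.5% of the summed synthase TPM in Hopx CR, 85.1% and 86.6% in Hopx AL, 88.8%, 91.2% and 91.0% in Lgr5 CR, and 73.6%, 70.8% and 73.4% in Lgr5 AL. The share was thus lower in the 3 Lgr5 AL libraries than in the other 7. Summed over both genes, the synthases stood at 186 and 139 TPM in Hopx CR, 94.8 and 112 in Hopx AL, 175, 231 and 252 in Lgr5 CR and 87.9, 89.2 and 118 in Lgr5 AL.

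Slc35b2 encodes the main transporter that moves PAPS from the cytosol into the Golgi. It was at 120.9 and 121.1 CPM in Hopx CR, against 96.1 and 107 CPM in Hopx AL. The groups did not overlap, but the log2 fold change of 0.26 (SE 0.199, adjusted p = 0.740, edgeR) did not pass. In Lgr5 cells the values were 87.7, 120 and 112 CPM under CR, against 93.6, 113 and 90.1 CPM under AL, and overlapped (log2 fold change 0.10, SE 0.162). On the log2(TPM + 1) scale the log2 fold change was -0.11, as was the median over all tested genes.

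**Figure D1:**
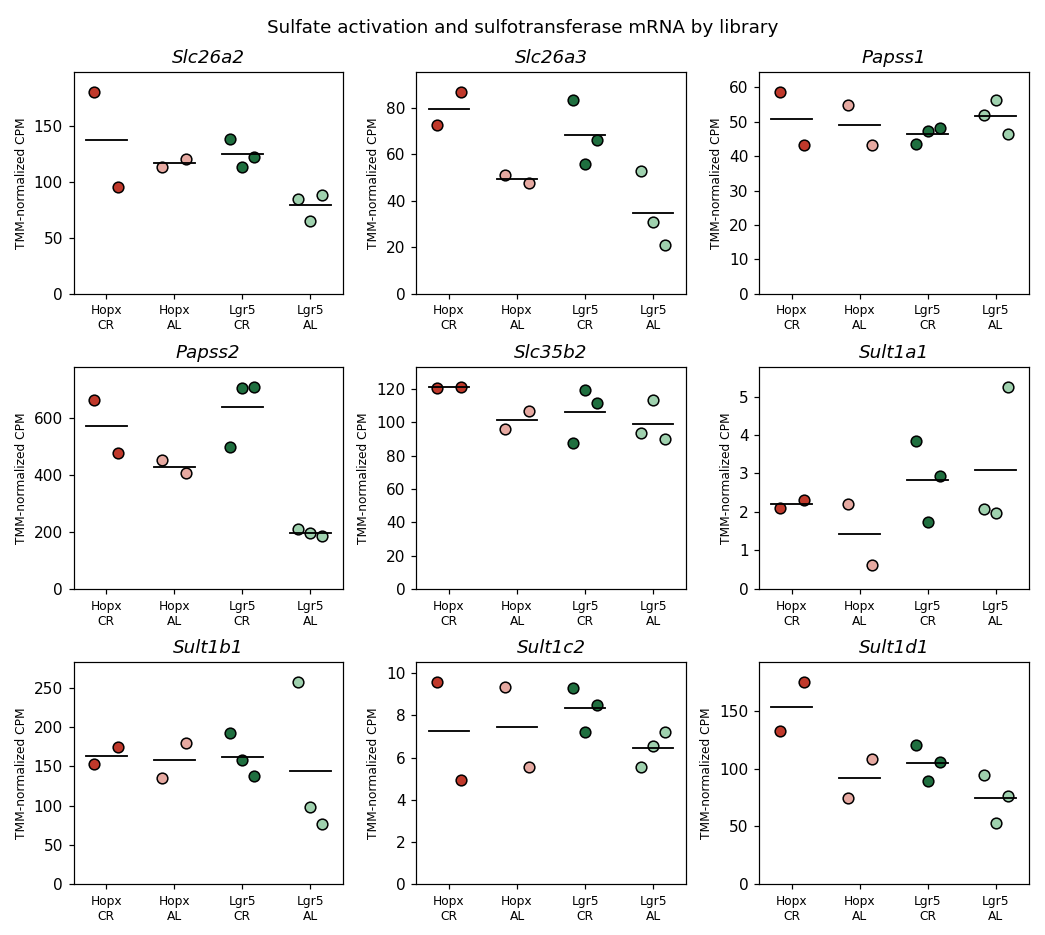
TMM-normalized CPM of each of the 9 genes in every library (points) with the group mean (line), for Hopx CR, Hopx AL, Lgr5 CR and Lgr5 AL, each panel on its own axis from 0. Papss2 shows the 3 Lgr5 AL libraries at 184 to 208 CPM below the 7 others at 404 to 706 CPM, while Papss1 stays between 43.2 and 58.6 CPM.

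Sult1d1 is a cytosolic sulfotransferase that in mice sulfates catecholamines and other amines and phenols. It was at 132 and 175 CPM in Hopx CR, against 74.9 and 108 CPM in Hopx AL. The groups did not overlap. Its log2 fold change of 0.75 (SE 0.299, unadjusted p = 0.032, adjusted p = 0.550, edgeR) was the only one of the 9 below an unadjusted p of 0.05 and did not pass after adjustment. Of all 15839 tested genes, 1349 were below that unadjusted p in this comparison. Without Hopx CR replicate 1 the log2 fold change of Sult1d1 was 0.93. In Lgr5 cells it was at 121, 89.1 and 106 CPM under CR, against 94.7, 52.6 and 76.5 CPM under AL, which overlapped, with a log2 fold change of 0.50 (SE 0.244).

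Sult1b1 conjugates thyroid hormones and phenols and is abundant in the human intestine. It was at 153 and 175 CPM in Hopx CR, against 136 and 180 CPM in Hopx AL, with a log2 fold change of 0.05 (SE 0.473, adjusted p = 0.982, edgeR). In Lgr5 cells it was at 192, 158 and 138 CPM under CR, against 257, 98.6 and 76.6 CPM under AL. The first Lgr5 AL library was the highest of all 10, and without it the log2 fold change of 0.17 (SE 0.387) became 0.89. That library also held the highest enterocyte sum among the AL libraries, 36095 CPM.

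Sult1c2 and Sult1a1 were low. Sult1c2 ran from 4.95 to 9.57 CPM over the 10 libraries, with log2 fold changes of -0.04 (SE 0.392, adjusted p = 0.984, edgeR) for CR against AL in Hopx cells and 0.37 (SE 0.322) in Lgr5 cells. Sult1a1, the phenol sulfotransferase, ran from 0.63 to 5.24 CPM, with log2 fold changes of 0.62 (SE 0.713, adjusted p = 0.831, edgeR) in Hopx cells and -0.12 (SE 0.580) in Lgr5 cells. Of the 31-base words of Sult1a1 transcripts, 11.4% also occur in other genes, foremost the predicted gene Gm6939, and it overlaps Sgf29 on the opposite strand by 61 bases (GENCODE M21). These kits do not mark the strand, so its level is uncertain.

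Counted over the whole table, CR against AL in Hopx cells called 2 of 15839 genes (0.0126%), and 0 of the 9 genes were among them by edgeR, DESeq2 or limma. By sign, 8 of the 9 had a positive log2 fold change, as did 7692 of all 15839 genes. The median was 0.26 for the 9, against -0.02 over all genes tested. The signs of Papss1, Slc26a2, Sult1a1, Sult1b1 and Sult1c2 turned when 1 library was left out. In Lgr5 CR against Lgr5 AL, 3 genes (0.0189%) were called, of which Papss2 was 1. With the isolation as a replicate block its log2 fold change was 1.68 and the call ended, as it did without any 1 of the Lgr5 libraries other than Lgr5 AL replicate 1. There the 9 genes had a median log2 fold change of 0.37, against 0.02 over all genes. Of the 9, 7 were positive, as were 8208 of all 15839 genes. The difference between the diet effects, Hopx minus Lgr5, was -1.28 for Papss2 (SE 0.309, unadjusted p = 0.00205, adjusted p = 1.00, edgeR). It draws on the Lgr5 libraries through which Papss2 was known and is no independent result. The interaction called 1 gene in all (0.00631%), none of the 9, with Papss2 alone at an unadjusted p under 0.05, and 0 of the 9 by DESeq2 or limma. Of all 15839 genes, 747 had an unadjusted p under 0.05 there (edgeR).

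Within isolations, each pair of animals gave its own difference. Papss2 was higher in the CR animal by 0.56 and 0.24 log2 CPM in the Hopx isolations 4 and 5, and by 1.26, 1.83 and 1.94 in the Lgr5 isolations 1, 2 and 3. Every Lgr5 difference was larger than either Hopx difference. Papss2 was known through the Lgr5 libraries, so nothing is read from this order. Slc26a3 was higher by 0.50 and 0.86 in Hopx and by 0.66, 0.85 and 1.66 in Lgr5. For Sult1d1 the differences were 0.82 and 0.69 in Hopx and 0.35, 0.76 and 0.47 in Lgr5. Slc26a2 gave 0.67 and -0.34 in Hopx and 0.71, 0.81 and 0.46 in Lgr5. Thus 3 of the 9 genes, Papss2, Slc26a3 and Sult1d1, had the higher value in the CR partner of each of the 5 isolations, as did 8.71% of all tested genes. That count includes the Lgr5 isolations through which Papss2 was known, so nothing is read from it. In the Hopx isolations alone, 4 of the 9 genes were higher in both CR animals, against 27.9% of all tested genes. Over all 5 isolations the other genes varied more. Slc26a2, Sult1c2 and Slc35b2 were higher in 4 of 5, Sult1b1 in 3 of 5, and Papss1 and Sult1a1 in 2 of 5.

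**Figure D2:**
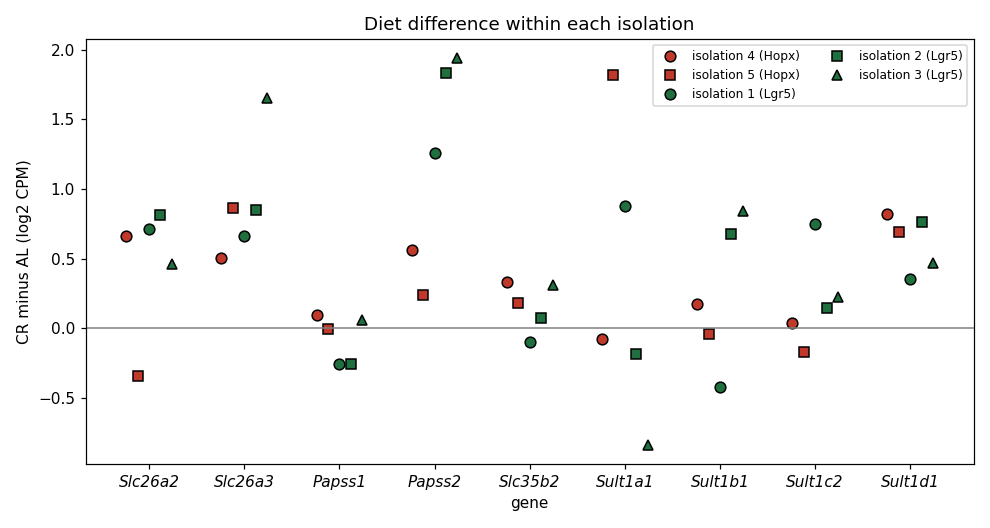
Difference between the CR and the AL animal of each isolation in log2 CPM, for each of the 9 genes; red marks are the Hopx isolations 4 and 5, green marks the Lgr5 isolations 1 to 3, and the grey line is no difference. Papss2, Slc26a3 and Sult1d1 have all 5 marks above 0, and the Papss2 marks of the lines lie apart, at 0.24 and 0.56 in Hopx and 1.26 to 1.94 in Lgr5. Papss2 was known through the Lgr5 isolations, so nothing is read from these positions.

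Fitted over all 5 isolations with the isolation as a block, the log2 fold change for CR against AL was 1.17 for Papss2 (SE 0.270), 0.90 for Slc26a3 (SE 0.171), 0.62 for Sult1d1 (SE 0.113) and 0.47 for Slc26a2 (SE 0.176). It lay between -0.07 and 0.30 for the other 5 genes. That fit called 47 of 15839 genes (0.297%), 0 of the 9 among them with edgeR. DESeq2 called Papss2, Slc26a3 and Sult1d1. Since it includes the Lgr5 libraries, nothing is read from these counts.

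The windows around the annotated starts of Papss2, Slc26a3 and Sult1d1 are shown. These 3 genes were higher in the CR animal than in its AL partner in all 5 isolations, as were 8.71% of all tested genes. That choice includes the Lgr5 isolations through which Papss2 was known, so nothing is read from the matches. The windows are taken from RefSeq on GRCm38.p6. They run from 250 bases before to 50 bases after the start and read 5′ to 3′ on the gene's strand. Papss2 has a window at chr19:32595465-32595764 (+) and another at chr19:32619755-32620054 (+), Slc26a3 at chr12:31437969-31438268 (+) and Sult1d1 at chr5:87568957-87569256 (-). Capitals mark matches to the motifs searched, on either strand.
Papss2, first start: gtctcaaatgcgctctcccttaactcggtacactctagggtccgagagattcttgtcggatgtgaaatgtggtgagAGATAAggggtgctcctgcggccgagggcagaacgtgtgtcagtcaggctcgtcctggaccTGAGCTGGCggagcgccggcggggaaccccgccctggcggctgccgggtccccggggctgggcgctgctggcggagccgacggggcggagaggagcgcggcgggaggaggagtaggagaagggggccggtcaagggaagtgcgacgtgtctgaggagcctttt
Papss2, second start: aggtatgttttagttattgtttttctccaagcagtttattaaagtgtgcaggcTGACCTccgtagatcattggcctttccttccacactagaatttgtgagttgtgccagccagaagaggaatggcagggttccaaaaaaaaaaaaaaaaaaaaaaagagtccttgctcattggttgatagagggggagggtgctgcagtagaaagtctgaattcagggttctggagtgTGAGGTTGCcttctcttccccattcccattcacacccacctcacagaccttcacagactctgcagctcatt
Slc26a3: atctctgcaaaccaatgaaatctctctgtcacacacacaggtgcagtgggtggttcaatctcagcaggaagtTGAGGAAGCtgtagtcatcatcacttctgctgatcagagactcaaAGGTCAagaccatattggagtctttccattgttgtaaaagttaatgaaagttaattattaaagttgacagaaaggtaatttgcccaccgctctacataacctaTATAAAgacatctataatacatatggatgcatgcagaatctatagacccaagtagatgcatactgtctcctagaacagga
Sult1d1: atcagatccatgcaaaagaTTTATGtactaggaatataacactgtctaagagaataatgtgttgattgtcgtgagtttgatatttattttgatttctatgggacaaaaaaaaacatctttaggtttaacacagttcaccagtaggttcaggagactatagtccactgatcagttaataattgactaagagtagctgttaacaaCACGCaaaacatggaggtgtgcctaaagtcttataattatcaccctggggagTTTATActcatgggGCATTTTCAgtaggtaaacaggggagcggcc
The motifs searched were the TATA box TATAAA, the CDX2 core TTTATG, the HNF4A site CAAAGTCCA, the nuclear receptor motif AGGTCA, the AP-1 site TGACTCA, the aryl hydrocarbon receptor core GCGTG, the antioxidant response element TGANNNNGC and the GATA motif AGATAA. The antioxidant response element letters occur in all 4 windows, 113 bases before the first Papss2 start, 21 before the second, 178 before that of Slc26a3 and 20 after that of Sult1d1. They also occur in 41.3% of 32851 such windows, so a match is common. AGGTCA occurs 197 bases before the second Papss2 start and 133 before that of Slc26a3, and in 16.3% of all windows. Slc26a3 has TATAAA 30 bases before its start (13.6% of all windows), and Sult1d1 has it on the other strand just inside the transcript, with TTTATG (11.9%) and GCGTG (32.4%) further upstream. The first Papss2 window, with 66.3% G and C against 44.3% in the second, holds AGATAA (11.2%). No matches in these windows overlap each other. CAAAGTCCA (0.475%) and TGACTCA (5.2%) are not in them. RefSeq windows were found for 8 of the 9 genes, all but Slc26a2.

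Per transcript length the 9 genes spanned a wide range. Mean levels over the 10 libraries were 148 TPM for Sult1b1, 128 for Papss2, 50.74 for Slc35b2, 50.66 for Sult1d1, 29.8 for Slc26a2, 23.1 for Slc26a3, 20.9 for Papss1, 4.60 for Sult1c2 and 2.76 for Sult1a1. Sult1b1 and Papss2 were at percentiles 95.0 and 94.0 of the tested genes, and Sult1a1 at 35.8. Neighbours in this order were often not separated. Papss2 exceeded Sult1b1 in 4 of 10 libraries, Slc35b2 exceeded Sult1d1 in 5, Slc26a2 exceeded Slc26a3 in 9, and Slc26a3 exceeded Papss1 in 7. Sult1c2 exceeded Sult1a1 in 9 of 10. In each library the highest 2 ranks were held by Sult1b1 and Papss2 and the lowest 2 by Sult1c2 and Sult1a1.

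Among the 4 SULT genes followed here, Sult1b1 supplied most of the transcripts by TPM. Its share of the summed TPM of the 4 SULT genes was 66.5% and 64.5% in Hopx CR, 74.2% and 74.9% in Hopx AL, 72.6%, 75.0% and 68.5% in Lgr5 CR and 82.5%, 74.6% and 60.6% in Lgr5 AL. Sult1d1 made up 29.8% and 33.4% in Hopx CR, 21.2% and 23.4% in Hopx AL, 23.7%, 21.9% and 27.3% in Lgr5 CR and 15.7%, 20.6% and 31.3% in Lgr5 AL. In each of the Hopx isolations the CR animal had the higher Sult1d1 share. These shares leave out Sult2b1, another cytosolic sulfotransferase, taken from the other sulfate lists. Mean levels of Sult2b1 were 80.1 TPM in Hopx CR, 59.6 in Hopx AL, 117 in Lgr5 CR and 98.2 in Lgr5 AL. With Sult2b1 counted, the shares of Sult1b1 and Sult1d1 would be lower, so they do not describe all cytosolic sulfotransferases.

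**Figure D3:**
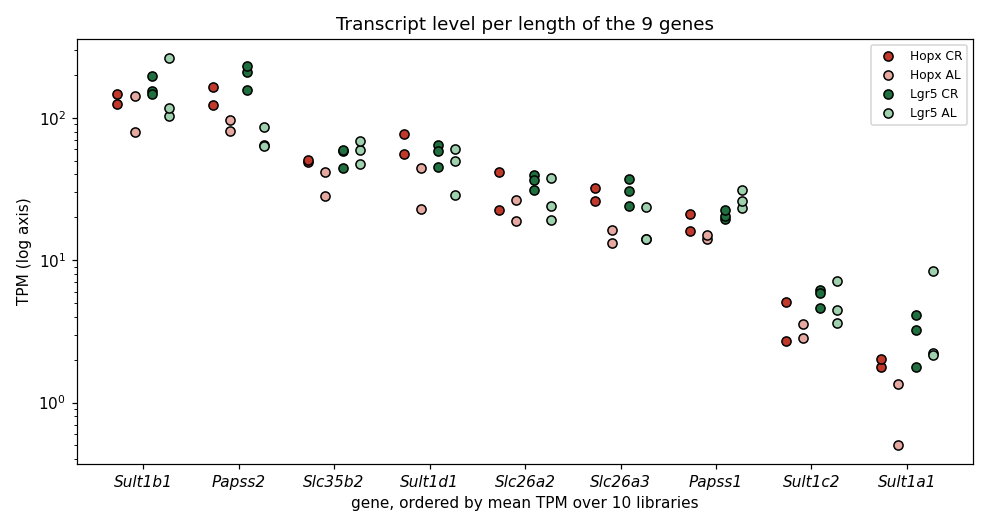
TPM of the 9 genes in every library on a log axis, ordered by mean TPM over the 10 libraries, with the 4 groups side by side in the order Hopx CR, Hopx AL, Lgr5 CR, Lgr5 AL. Sult1b1 and Papss2 lie highest, between 63.1 and 262 TPM, and Sult1c2 and Sult1a1 lowest, between 0.51 and 8.40 TPM.

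The cell populations were compared under each diet. Hopx and Lgr5 cells came from different isolations, so the reporter and the isolation cannot be told apart here. Under AL, Papss2 stood at 450 and 404 CPM in Hopx cells, against 208, 197 and 184 CPM in Lgr5 cells, without overlap. The log2 fold change was 1.12 (SE 0.215, adjusted p = 0.0676, edgeR) and did not pass, while DESeq2 gave 1.08 (adjusted p = 0.000326). By TPM the groups overlapped, at 80.6 and 97.1 in Hopx AL, against 64.7, 63.1 and 86.3 in Lgr5 AL. On the log2(TPM + 1) scale the log2 fold change of Papss2 was 0.32 (limma, adjusted p = 0.351). On that scale the median over all genes moved by -0.49 between these groups, against 0.04 on the CPM scale, so Papss2 remained above the median. Slc26a2 was also apart under AL, at 114 and 120 CPM in Hopx cells, against 84.3, 64.6 and 88.5 in Lgr5 cells (log2 fold change 0.56, SE 0.254, adjusted p = 0.283, edgeR), but -0.21 on the log2(TPM + 1) scale. Of the 9 genes edgeR called 0, with 1 at an unadjusted p under 0.05 and 3 of 15839 genes called in all (0.0189%). Among all 15839 genes, 2801 had an unadjusted p under 0.05 (edgeR). DESeq2 called Papss2, and limma on log2(TPM + 1) called Papss1, lower in Hopx cells. Both comparisons of the reporters use the Lgr5 libraries in which Papss2 was known to differ by diet.

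Under CR, Papss2 was at 663 and 477 CPM in Hopx cells, against 498, 703 and 706 CPM in Lgr5 cells, and overlapped (log2 fold change -0.16, SE 0.219, adjusted p = 0.969, edgeR). Sult1d1 at 132 and 175 CPM in Hopx cells, against 121, 89.1 and 106 CPM in Lgr5 cells, did not overlap, with a log2 fold change of 0.54 (SE 0.269, adjusted p = 0.837, edgeR). Slc35b2 did not overlap either, by a small margin, at 120.9 and 121.1 CPM in Hopx cells, against 87.7, 120 and 112 CPM in Lgr5 cells. None of the 9 genes was called by edgeR, DESeq2 or limma, and 0 had an unadjusted p under 0.05, with 3 of 15839 genes called (0.0189%). Among all 15839 genes, 998 had an unadjusted p under 0.05 (edgeR).

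The rest of the sulfate pathway was taken from 6 lists of 89 genes. Of these, 62 passed the filter on low counts. The Sult2a genes Sult2a1 to Sult2a4, Sult2a6 and Sult2a7, which conjugate bile acids and steroids in liver, were listed at 0 counts in every library. By edgeR, 0 of the 62 were called in any of the 6 comparisons. At an unadjusted p under 0.05 there were 2 in Hopx CR against AL, 7 in Lgr5 CR against AL, 1 in the interaction, 7 in Hopx AL against Lgr5 AL, 1 in Hopx CR against Lgr5 CR and 17 over the 5 isolations. Among all 15839 tested genes the counts were 1349, 1549, 747, 2801, 998 and 2558, in the same order (edgeR). For the 62 genes, DESeq2 and limma were run as well. DESeq2 called 8 of them over the 5 isolations, 1 each in Lgr5 CR against AL and Hopx AL against Lgr5 AL, and 0 in the others. With limma on log2(TPM + 1), a scale whose median shift is given above, 13 were called in Hopx AL against Lgr5 AL, all lower in Hopx cells, and 0 in the other comparisons. How many of all genes DESeq2 and limma called is not given here, so nothing is read from their counts.

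Among other sulfate transporters, Slc13a1, the sodium-coupled sulfate transporter, was at 81.2 and 73.4 CPM in Hopx CR, against 102 and 67.1 CPM in Hopx AL. In Lgr5 cells it was at 50.4, 196 and 136 CPM under CR, against 44.0, 55.5 and 45.0 CPM under AL. Isolations 2 and 3 carried that difference, and isolation 1 gave 0.20 log2 CPM. Its log2 fold change in Lgr5 cells was 1.40 (SE 0.397, adjusted p = 0.273, edgeR; adjusted p = 0.0352, DESeq2). Slc26a6, an apical anion exchanger of chloride, bicarbonate and oxalate that also carries sulfate, was at 233 and 221 CPM in Hopx CR, against 124 and 102 CPM in Hopx AL (log2 fold change 1.01, SE 0.508, adjusted p = 0.608, edgeR). In Lgr5 cells Slc26a6 was at 220, 295 and 271 CPM under CR, against 296, 136 and 68.5 CPM under AL. These groups overlapped, and isolation 1 gave -0.43 log2 CPM. Over the list, 3 of 5 tested transporters were positive in Hopx cells, with a median of 0.27, and 4 of 5 in Lgr5 cells, with a median of 0.65. For this list and those below, the counts over all 15839 tested genes were 7692 positive in Hopx cells and 8208 in Lgr5 cells. Their medians were -0.02 and 0.02.

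After transfer of the sulfate, PAP is left and is broken down by phosphatases. Bpnt1, the cytosolic phosphatase, was at 460 and 552 CPM in Hopx CR, against 405 and 354 CPM in Hopx AL, and at 498, 421 and 465 CPM in Lgr5 CR, against 426, 297 and 263 CPM in Lgr5 AL. In every isolation the CR animal had the higher level, by 0.19 to 0.64 log2 CPM in Hopx and 0.22 to 0.82 in Lgr5, with a log2 fold change over isolations of 0.48 (SE 0.135, adjusted p = 0.165, edgeR). Impad1, the Golgi phosphatase, was also higher in the CR animal of every isolation, by 0.08 log2 CPM or more. Slc35b3, another Golgi PAPS transporter, differed by 0.46 in Lgr5 CR against AL (SE 0.152, adjusted p = 0.362, edgeR), without overlap of the groups. All 3 genes of this list were positive in both diet comparisons, with medians of 0.25 in Hopx and 0.46 in Lgr5 cells, and 0 of 3 were called.

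Golgi sulfotransferases went in no common direction. Of 27 tested, 12 were positive in Hopx CR against AL (median -0.15) and 17 in Lgr5 CR against AL (median 0.05). The heparan sulfate enzymes Ndst1 and Ndst2, which remove the acetyl group and sulfate the nitrogen, had the smallest p of this list in Hopx cells. Ndst2 was at 41.5 and 36.4 CPM in Hopx CR, against 28.6 and 21.1 CPM in Hopx AL (log2 fold change 0.65, SE 0.226, adjusted p = 0.514, edgeR). Ndst1 differed by 0.68 (SE 0.229, adjusted p = 0.504, edgeR). Chst2, which sulfates N-acetylglucosamine, was at 5.72 and 3.91 CPM in Hopx CR, against 2.31 and 0.469 CPM in Hopx AL, and at 10.7, 7.77 and 11.2 CPM in Lgr5 CR, against 2.00, 2.82 and 9.02 CPM in Lgr5 AL (log2 fold change over isolations 1.68, SE 0.407, adjusted p = 0.127, edgeR). Tpst1, a tyrosylprotein sulfotransferase, was the gene of all 6 lists with the smallest p between populations under AL, at 25.6 and 17.1 CPM in Hopx AL, against 5.42, 7.34 and 3.05 CPM in Lgr5 AL (log2 fold change 2.01, SE 0.547, adjusted p = 0.123, edgeR).

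Of the enzymes that remove sulfate, Sulf2, an extracellular sulfatase of heparan sulfate, was at 64.8 and 75.7 CPM in Hopx CR, against 45.0 and 26.7 CPM in Hopx AL. In Lgr5 cells it was at 94.2, 79.0 and 80.6 CPM under CR, against 56.9, 33.4 and 16.7 CPM under AL. Neither pair of groups overlapped, and the log2 fold change over the 5 isolations was 1.25 (SE 0.244, adjusted p = 0.0812, edgeR). The sulfatase list also holds the sulfatase modifying factors Sumf1 and Sumf2, which are not enzymes that remove sulfate. Of its 12 tested genes, 6 were positive in Hopx cells and 9 in Lgr5 cells. Among genes that make sulfate from cysteine, Suox, the sulfite oxidase that forms sulfate, was lower in the CR animal of all 5 isolations. It was at 47.3 and 28.2 CPM in Hopx CR, against 61.5 and 42.8 CPM in Hopx AL, and at 17.97, 33.6 and 24.4 CPM in Lgr5 CR, against 37.0, 47.0 and 47.3 CPM in Lgr5 AL. The log2 fold change over isolations was -0.69 (SE 0.138, adjusted p = 0.0812, edgeR). Got1, the cytosolic aspartate aminotransferase, lay on the other side, at 0.69 (SE 0.152, adjusted p = 0.106, edgeR).

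Counted by isolation, 17 of the 62 genes (27.4%) were higher in the CR animal of all 5, against 8.71% of all tested genes, and 3 (4.84%) were lower in all 5, against 7.94%. The 17 include 7 of the 27 Golgi sulfotransferases and 2 of 3 PAPS and PAP genes. They also include 4 of the 12 tested genes on the sulfatase list, Sumf1 among them. Some of the 17, Golgi sulfotransferases among them, were near the floor, with 0 counts in some Lgr5 AL libraries. Others differed by as little as 0.002 log2 CPM in an isolation. The genes of a pathway share libraries and are not independent, and these counts carry no test.

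**Figure D4:**
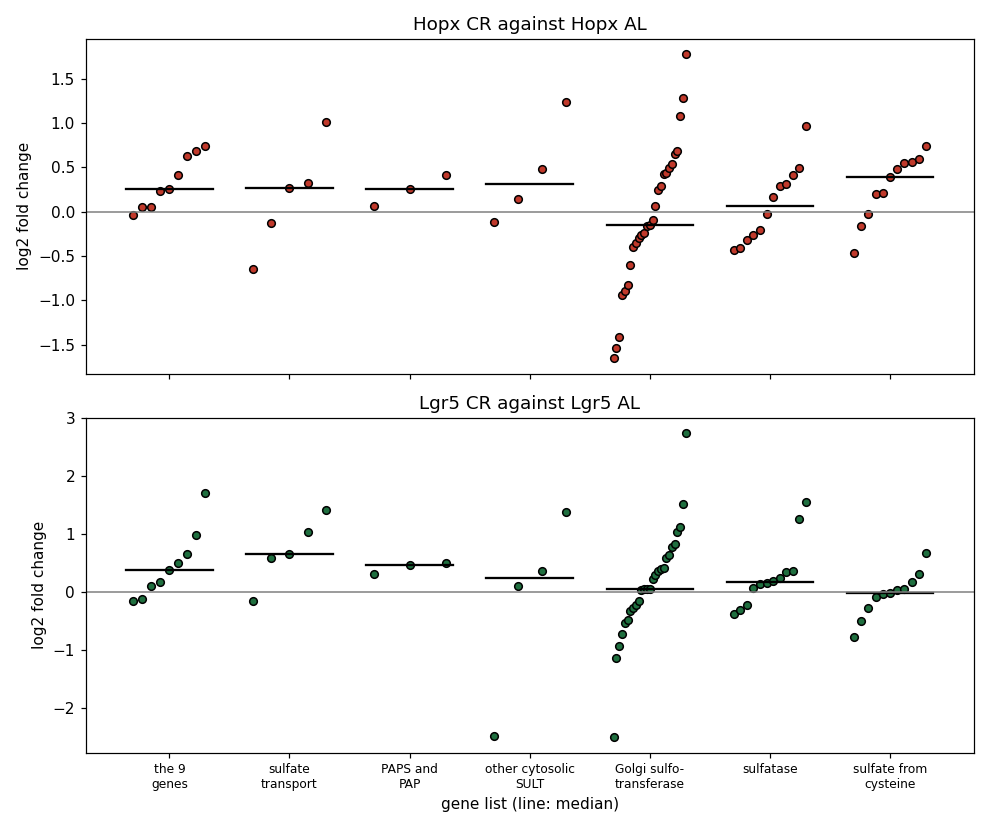
Log2 fold change of CR against AL for the 9 genes and the tested genes of the 6 other sulfate lists, Hopx cells above and Lgr5 cells below, 1 point per gene, sorted within a list, with the list median as a line. The 9 genes have medians of 0.26 in Hopx and 0.37 in Lgr5 cells, and the Golgi sulfotransferases spread to both sides of 0.

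The genes most like Papss2 over the 10 libraries were found by the root mean square difference between centred log2 CPM profiles, among 9952 genes of at least 5 CPM. They were Otop3 (0.28), a proton channel, Acadl (0.34), the long-chain acyl-CoA dehydrogenase, Gstm4 (0.36), a glutathione transferase, D5Ertd579e (0.36) and Ugdh (0.37), which makes UDP-glucuronate. The own spread of Papss2 was 0.72 on this scale. Its profile holds the gap between Lgr5 CR and Lgr5 AL through which Papss2 was known. Genes picked for a like profile share that gap by the way they were picked, so nothing is read from their levels. Otop3 averaged 56.2 ± 31.02 CPM in Hopx CR and 42.7 ± 9.11 in Hopx AL (SD, n = 2 each), and 55.3 ± 19.1 in Lgr5 CR and 19.0 ± 3.96 in Lgr5 AL (SD, n = 3 each). In isolation 5 Otop3 was lower in the CR animal, at 34.3 CPM against 36.3 CPM in the AL animal, while Papss2 was higher there. Ugdh averaged 450 ± 47.0 CPM in Hopx CR and 370 ± 50.8 in Hopx AL (SD, n = 2 each), and 512 ± 58.8 in Lgr5 CR and 237 ± 93.5 in Lgr5 AL (SD, n = 3 each).

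The enterocyte markers were compared in the same way. All 20 markers had positive log2 fold changes in both diet comparisons, with medians of 1.00 in Hopx and 0.65 in Lgr5 cells, and 0 of 20 were called in either (edgeR). Within isolations the ratio of the CR to the AL animal in summed enterocyte CPM was 1.5 and 2.18 in the Hopx isolations 4 and 5, and 1.02, 2.22 and 3.69 in the Lgr5 isolations 1, 2 and 3. The ratio for Papss2 was 1.47 and 1.18 in Hopx and 2.39, 3.57 and 3.83 in Lgr5. In isolation 1 the enterocyte sums of the animals were nearly equal, and the ratios were 2.39 for Papss2, 1.58 for Slc26a3, 1.28 for Sult1d1 and 0.747 for Sult1b1. The single markers went both ways in that isolation: 11 of 20 were higher and 9 lower in the CR animal. Apob was at 1418 CPM in the CR and 273 CPM in the AL animal. Sis was at 579 CPM in the CR and 186 CPM in the AL animal, while Apoa1 was at 5911 CPM in the CR and 8800 CPM in the AL animal. Other marker lists differed between the animals of isolation 1. Of 10 active stem cell markers, 9 were higher in the CR animal (median ratio of CR to AL 1.54). Their sums were 8573 CPM in the CR and 4520 CPM in the AL animal. Median ratios were 0.840 for goblet, 0.857 for Paneth, 0.434 for enteroendocrine, 0.287 for tuft and 0.493 for immune markers. In the Hopx isolations 4 and 5, 17 and 19 of the 20 enterocyte markers were higher in the CR animal, and in the Lgr5 isolations 2 and 3 all 20 were. For Slc26a3 the ratios were 1.42 and 1.82 in Hopx and 1.58, 1.81 and 3.16 in Lgr5. The part of enterocyte transcripts in the values of the 9 genes was not tested beyond these ratios, and in bulk libraries fewer cells of a type cannot be told apart from less RNA per cell. Slc26a3 is also abundant in colonocytes. The summed level of 8 colonocyte markers was 347 to 433 CPM in Hopx CR, 186 to 205 in Hopx AL, 298 to 370 in Lgr5 CR and 136 to 335 in Lgr5 AL. Of the 7 tested, 5 had positive log2 fold changes in both diet comparisons, with medians of 0.43 in Hopx and 0.18 in Lgr5 cells. Car4 was at 73.2 to 257 TPM, while Car1 was at 0 in 9 of 10 libraries and at 0.426 TPM in the other.

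Other marker lists had a single sign throughout in a diet comparison. All 10 tuft cell markers had negative log2 fold changes in Lgr5 cells (median -1.91), with sums of 102 to 166 CPM in Lgr5 CR and 291 to 707 CPM in Lgr5 AL. In Hopx cells all 10 immune markers were negative (median -1.71), with sums of 25.3 to 80.5 CPM in Hopx CR and 103 to 235 CPM in Hopx AL. All 10 enteroendocrine markers (median -0.91) and all 9 Paneth markers (median -0.65) were negative in Hopx cells too, with enteroendocrine sums of 2041 to 6205 CPM in Hopx CR and 3975 to 5978 CPM in Hopx AL. None of these markers was called (edgeR), and their part in the values of the 9 genes was not tested.

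**Figure D5:**
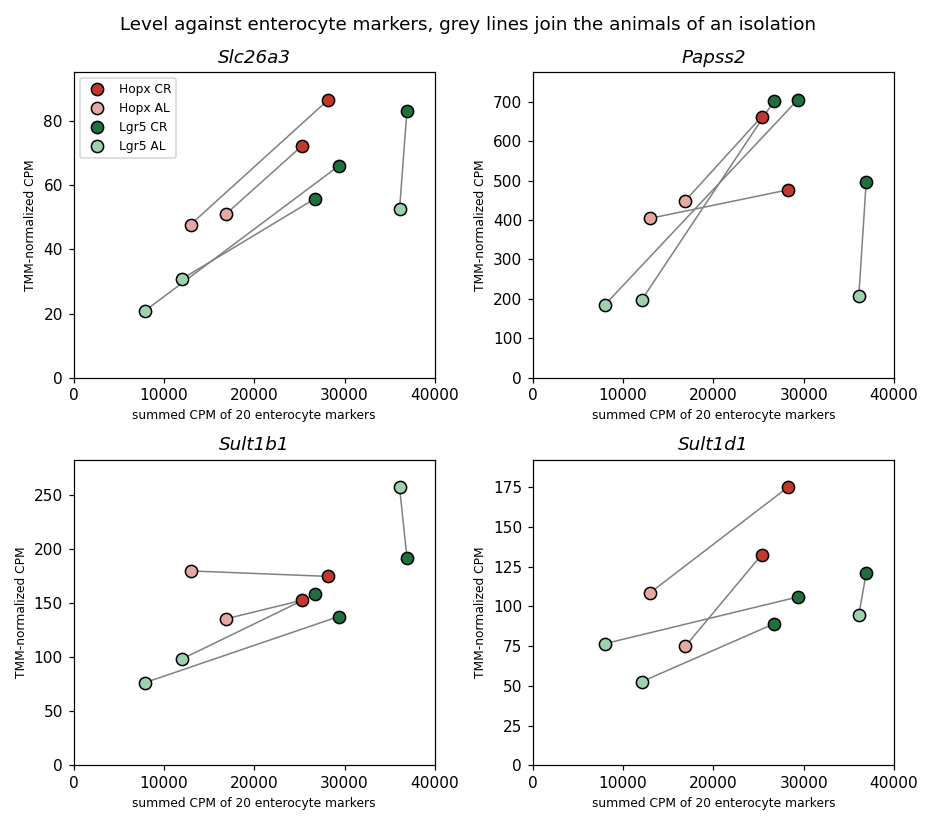
CPM of Slc26a3, Papss2, Sult1b1 and Sult1d1 in each library against the summed CPM of 20 enterocyte markers; grey lines join the CR and the AL animal of an isolation. The line of isolation 1, at the right of each panel, is nearly vertical, with enterocyte sums of 36912 CPM in the CR and 36095 CPM in the AL animal. Single enterocyte markers and other marker lists differed between these animals.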

How the data were processed

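Per the labels' protocols, RNA of sorted cells was extracted with TRIzol LS, made into full-length cDNA with SMART-Seq v4 and into libraries with Nextera XT, which carry no molecular identifiers or strand information, so counting precision is not that of independent molecules. The authors deposited estimated counts per gene and TPM per gene for 30295 rows and 10 libraries. The submitters' processing notes name kallisto, edgeR and the build GRCh38, a human build, while the symbols are mouse symbols; the annotation and the summing of transcripts to genes are not stated there, so no gene coordinates are drawn from these tables.

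Estimated counts were rounded to whole numbers, filtered with filterByExpr (minimum count of 10) and scaled by TMM. The model held a mean per group over the 10 libraries and was tested by quasi-likelihood in edgeR (edgeR 4.0.16, R 4.3.3; biological coefficient of variation 0.389), two-sided, with Benjamini-Hochberg adjustment over 15839 genes and a threshold of 0.05. Differences within isolations use log2 CPM with a prior count of 2. The fit over 5 isolations has isolation and diet as terms. Alternatives were RLE scaling, DESeq2 1.42.0, no filter, limma 3.58.1 on log2(TPM + 1) and log2(TPM + 0.1), the isolation as a replicate block, the libraries of the 2 groups alone, and each library left out.

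The labels give each isolation number to 1 CR and 1 AL animal, which pairs them; deviations of partners from their group means had correlations of 0.0759, 0.165 and 0.0195 in Lgr5 and 0.0252 in Hopx isolations. No libraries were identical, and libraries of a group correlated at 0.937 to 0.965 in log2 CPM.

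The members and lists were chosen with earlier results of these data known. Named genes were all 9 members, of each other sulfate list and comparison the 2 with the smallest p where none passed, and the 5 genes most like Papss2; those under 1 CPM are not described. Bpnt2 was found as Impad1 and Sqor as Sqrdl. Sult2a8, Sult3a2, Sult6b2 and Sts are not analysed here.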

Additional observations from a re-analysis of the deposited data

Results flagged for a closer look

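Among the 62 other sulfate genes, 2 had a diet difference of one sign in all 3 Lgr5 isolations and of the other sign in both Hopx isolations (3.23%), as did 833 of the 15839 tested genes (5.26%). Chst14, the dermatan sulfotransferase, differed by -0.46 and -0.27 log2 CPM (CR minus AL) in the Hopx isolations 4 and 5, and by 0.99, 0.93 and 0.54 in the Lgr5 isolations 1, 2 and 3. The difference between its diet effects, Hopx minus Lgr5, was -1.22 (SE 0.739, adjusted p = 1.00, edgeR), at levels of 0.892 to 2.26 CPM. Csad, which makes hypotaurine from cysteine sulfinate, differed by 0.39 and 0.02 in Hopx and by -0.12, -0.21 and -0.51 in Lgr5, and the difference between the effects was 0.48 (SE 0.321, adjusted p = 1.00, edgeR). Neither passed the test of the difference.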

How the results depend on the processing

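Papss2 was called in Lgr5 CR against Lgr5 AL by edgeR with TMM scaling, by DESeq2 and without the filter on low counts, and with RLE scaling, limma on either TPM scale, the isolation as a replicate block or only the libraries of the 2 groups, 0 of the 9 genes were called. Its log2 fold change with the replicate block was 1.68 against 1.69 without it. Leaving out 1 library gave 0 to 2 calls: 2, Papss2 and Slc26a3, without Lgr5 AL replicate 1, and 0 without any other single Lgr5 library. Of the other sulfate genes 0 were called there, 1 (Slc13a1) with DESeq2, and 0 to 1 with a library left out (Sult2b1 without Lgr5 AL replicate 1). In Hopx AL against Lgr5 AL, DESeq2 and the fit without a filter each called 1 of the 9, Papss2, and limma on log2(TPM + 1) called 1, Papss1. Of the other sulfate genes DESeq2 called 1, limma on log2(TPM + 1) 13 and on log2(TPM + 0.1) 7, all lower in Hopx cells with limma. Over the 5 isolations DESeq2 and the fit without a filter each called 3 of the 9, and 8 and 1 of the other sulfate genes. The replicate block changed no other count of calls among these genes, and no paired fit was possible between Hopx and Lgr5 because they share no isolation. How many of all genes DESeq2, limma and the fit without a filter called is not given here, so nothing is read from their counts.

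Signs of uncalled genes of the 9 turned in part. With limma on log2(TPM + 1) and log2(TPM + 0.1), in that order, the following log2 fold changes had the other sign. For Hopx CR against Hopx AL the values were 0.18 and 0.21 for Sult1c2. For the difference between the diet effects the values were 0.11 and 0.12 for Slc26a3, 0.19 and 0.19 for Sult1b1, 0.043 and 0.047 for Sult1c2. For Hopx AL against Lgr5 AL the values were -0.21 and -0.22 for Slc26a2, -0.18 and -0.19 for Slc26a3, -0.74 and -0.75 for Slc35b2, -0.47 and -0.47 for Sult1b1, -0.50 and -0.60 for Sult1c2, -0.47 and -0.48 for Sult1d1. For Hopx CR against Lgr5 CR the values were -0.17 and -0.18 for Papss1, -0.21 and -0.22 for Slc26a2, -0.066 and -0.068 for Slc26a3, -0.10 and -0.10 for Slc35b2, -0.28 and -0.28 for Sult1b1. On the TPM scale the median of all genes moved to 0.15, 0.29, -0.49 and -0.19 in these comparisons. Slc35b2 in Hopx AL against Lgr5 AL was -0.0062 with RLE scaling and -0.0066 with DESeq2. In Lgr5 CR against Lgr5 AL, Slc35b2 was -0.11 on both TPM scales, and the median of all genes on log2(TPM + 1) was also -0.11. Leaving out 1 library turned the sign of others, with these ranges. For Hopx CR against Hopx AL it ran from -0.18 to 0.26 for Papss1, -0.30 to 0.63 for Slc26a2, -0.0078 to 1.82 for Sult1a1, -0.12 to 0.27 for Sult1b1, -0.59 to 0.39 for Sult1c2. For the difference between the diet effects it ran from -0.035 to 0.43 for Papss1, -0.84 to 0.20 for Sult1b1, -0.97 to 0.046 for Sult1c2. For Hopx AL against Lgr5 AL it ran from -0.28 to 0.096 for Papss1, -0.047 to 0.14 for Slc35b2, -0.20 to 0.85 for Sult1b1, -0.24 to 0.54 for Sult1c2. For Hopx CR against Lgr5 CR it ran from -0.10 to 0.34 for Papss1, -0.42 to 0.063 for Papss2, -0.39 to 0.54 for Slc26a2, -0.096 to 0.14 for Sult1b1, -0.75 to 0.20 for Sult1c2. For Lgr5 CR against Lgr5 AL it ran from -0.43 to 0.49 for Sult1a1 and -0.14 to 0.89 for Sult1b1, and over the 5 isolations from -0.058 to 0.61 for Sult1a1. The cause was not tested. Of the 702 alternative log2 fold changes of the 9 genes, 633 kept and 69 turned their sign. With 2 animals a group in Hopx cells, the standard errors of the 9 log2 fold changes ran from 0.199 to 0.713. Sult1a1 and Sult1c2 rest on the fewest counts of the 9 genes, and Sult1a1 had the largest standard error.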
